A study of Arabidopsis thaliana with 28 samples.

Results

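The suvh2 and the suvh9 single mutant of Arabidopsis thaliana were represented by 1 library each, 2 of the 28 samples of the series and 2 of its 24 IPARE libraries, and were taken by the genotype in their labels. IPARE sequences the 5′ ends of RNA bound by RNA polymerase V (Pol V), recovered with an antibody to its largest subunit, NRPE1. Every IPARE library came from whole seedlings of 18 days in the Columbia ecotype; DNA methylation was measured in leaves of Col-0 plants of 3.5 weeks (2 samples, averaged by the authors). The single mutants were set against each other, against the suvh2/suvh9 double mutant, against wild-type Col-0, and against nrpe1, whose antibody target is mutated and which gives the background. These 5 genotypes have 1 library each under the tag gp4 in their titles, a tag that no label explains. The 5 other Col-0 and 4 other nrpe1 libraries carry another tag or none (untagged, gp2, gp3, gp5 and gp6) and gave the spread between libraries. The remaining IPARE libraries are from the mutants ago4, spt5l, dms5-1 and drd3-3 (2 each) and drd1 and dms3 (1 each). They entered the window-level test and the ranges over other libraries. The labels name no allele of suvh2, suvh9 or nrpe1 and do not say how many seedlings were pooled.

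In plants, RNA-directed DNA methylation (RdDM) silences transposons and other repeats. Pol IV makes precursors of small interfering RNAs, and Pol V makes the nascent transcripts to which these RNAs guide the methyltransferase DRM2. SUVH2 and SUVH9 are closely related proteins with a domain that binds methylated DNA. Although both have a SET domain, neither is known to act as an active histone methyltransferase, and both are known to help bring Pol V to chromatin that is already methylated, through the remodelling complex of DRD1, DMS3 and RDM1. The comparison addresses how far each of the 2 proteins alone carries Pol V transcription.

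Reads were counted in 200-bp windows with starts 150 bp apart, and the authors' lists put 158210 windows outside the ribosomal DNA (rDNA) in the RdDM class, and 204353 in a class transcribed by Pol V outside RdDM targets (called non-RdDM). The rest are listed as not transcribed by Pol V. The suvh2 library held 3368326 window counts, the suvh9 library 3074731 and the double mutant 2436809, against 2731304 in Col-0 gp4 and 1718898 in nrpe1 gp4. Windows of rDNA took 38.9% of the counts in suvh2, 32.0% in suvh9, 46.7% in the double mutant, 31.5% in Col-0 gp4 and 61.3% in nrpe1 gp4. Counts are therefore given per background count, that is per count in windows outside rDNA that are listed as not transcribed by Pol V, or as normalised counts, which are scaled so that this background equals that of Col-0 gp4. A window or class then has its signal as a percentage of Col-0 gp4. The labels tie the class lists to Col-0 and nrpe1 of gp3, gp4 and the untagged set, which are therefore not independent of the classes, whereas no list is tied to the suvh2 or suvh9 library. With 1 library a genotype there is no replicate of either mutant: ratios of sums have no test, and the range over Col-0 libraries stands in for the spread. For a single library against the 6 Col-0 libraries, a two-sided exact permutation p cannot fall under 0.143, even where that library lies below or above all 6.

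RdDM signal in suvh2 was below that of Col-0 gp4, and in suvh9 it was at the same level. RdDM windows took 26.54% of the counts in suvh2 (95% Wilson interval 26.49% to 26.58%), 42.05% in suvh9 (41.998% to 42.11%) and 13.4% in the double mutant (13.3% to 13.4%), against 40.9% in Col-0 gp4 (40.8% to 40.9%) and 3.18% in nrpe1 gp4 (3.15% to 3.20%); the intervals cover counting error only. Per background count, suvh2 had 1.01 RdDM counts, suvh9 2.57 and the double mutant 0.378, against 2.54 in Col-0 gp4 and 0.0942 in nrpe1 gp4. The 5 other Col-0 libraries had 2.64 (untagged), 1.37 (gp2), 1.57 (gp3), 1.25 (gp5) and 0.854 (gp6), and the 5 nrpe1 libraries 0.0755 to 0.216. Thus suvh2 lay inside the range of Col-0 libraries, above gp6, and suvh9 lay between the 2 highest of them. The Col-0 libraries tied to the class lists (untagged, gp4 and gp3) all stood above those that are not (gp2, gp5 and gp6). Against the mean of gp2, gp5 and gp6, suvh2 had 87.0% and suvh9 221.9% of the RdDM signal, so the level depends on the Col-0 library used. The double mutant lay below all 6 Col-0 libraries and above all 5 nrpe1 libraries.

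Relative to Col-0 gp4, the RdDM signal was 39.7% in suvh2, 101.1% in suvh9, 14.9% in the double mutant and 3.71% in nrpe1, and the other Col-0 libraries spanned 33.6% to 103.8%. The suvh2 signal was lower than that of suvh9 by a log2 difference of −1.35, a size within the range of 1.63 between the lowest and the highest of the 6 Col-0 libraries on the same scale. In non-RdDM windows suvh2 had 0.349 counts per background count, suvh9 0.609 and the double mutant 0.157, against 0.748 in Col-0 gp4. That is 46.6% in suvh2, 81.4% in suvh9 and 21.0% in the double mutant, against 14.1% in nrpe1 and 32.4% to 96.8% in the other Col-0 libraries. The log2 ratio of suvh2 to suvh9 was −0.80 there, smaller than in the RdDM class. On this scale the order of suvh2, suvh9 and the double mutant was the same in both classes, but scaled to library totals without rDNA the log2 ratio of suvh2 to suvh9 in non-RdDM windows was 0.022, with the sign turned. In whole seedlings, fewer cells with Pol V transcripts and less Pol V RNA per cell cannot be told apart.

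**Figure D1:**
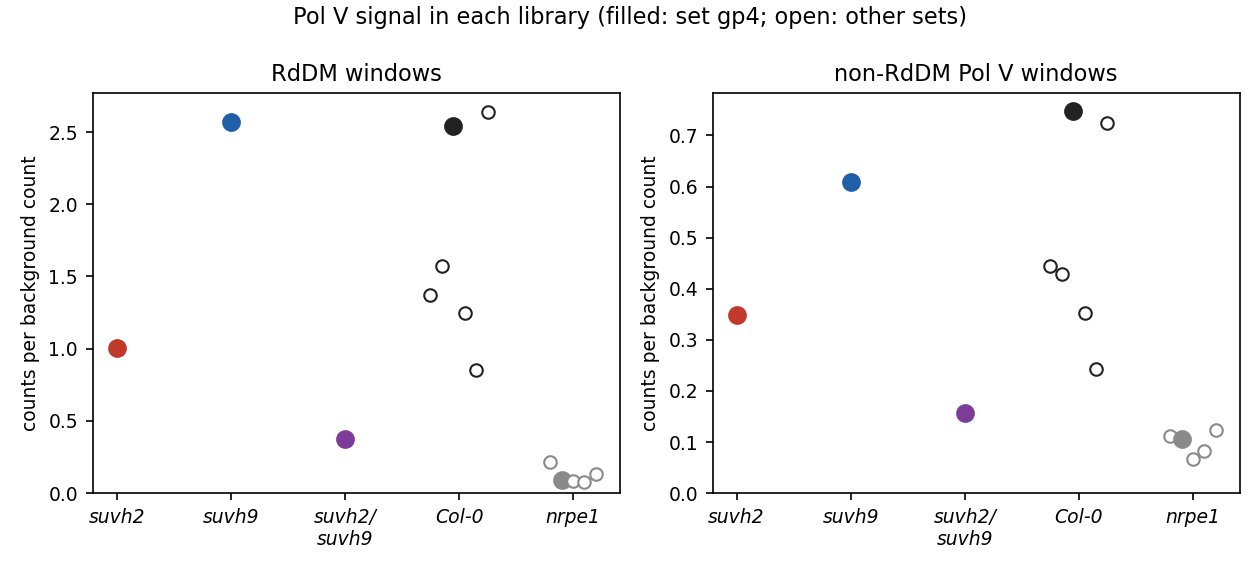
Counts per background count (y axis) in RdDM windows (left) and non-RdDM Pol V windows (right) for each library; filled points are the set gp4, open points the other sets. In RdDM windows suvh2 stands at 1.01 and suvh9 at 2.57, while the 6 Col-0 libraries stand between 0.854 and 2.64.

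A small number of RdDM windows carried much of what was left in suvh2. The 2813 RdDM windows with at least 5 counts summed over the nrpe1 libraries held 38.7% of the RdDM counts of suvh2, 14.4% of those of suvh9 and 36.4% of those of the double mutant, against 14.0% in Col-0 gp4 and 93.5% in nrpe1 gp4. In these windows the signal was 109.9% of Col-0 gp4 in suvh2, 104.5% in suvh9 and 38.8% in the double mutant, against 24.8% in nrpe1. Reads that a window yields without functional Pol V are part of these values; their share in each library was not tested. Without these windows, RdDM signal was 28.3% in suvh2, 100.5% in suvh9, 11.0% in the double mutant and 0.279% in nrpe1, with 31.5% to 102.4% in the other Col-0 libraries. In this set of windows suvh2 was below all 6 Col-0 libraries and suvh9 inside their range. Non-RdDM signal without such windows was 35.0% in suvh2, 81.1% in suvh9, 14.5% in the double mutant and 4.29% in nrpe1, with 29.7% to 95.7% in the other Col-0 libraries. The limit of 5 counts was chosen after the data were seen. The rule uses the nrpe1 counts themselves, nrpe1 gp4 among them. The nrpe1 values with and without these windows, here and in later subsets, thus follow from the rule and are no separate measure of background.

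Window by window, the lower signal of suvh2 was spread over most of the RdDM windows with enough counts to compare. These were 11938 of the 158210 RdDM windows outside rDNA, and the others were not compared. Among 15921 windows with at least 60 counts summed over suvh2, suvh9 and Col-0 gp4, 10211 (64.1%) had at least 2-fold less signal in suvh2 than in suvh9, and 924 (5.8%) at least 2-fold more. Of the 11938 RdDM windows among them, 9014 (75.5%) were lower and 502 (4.21%) higher in suvh2 than in suvh9. Set against Col-0 gp4, 68% of all these windows were at least 2-fold lower and 3.93% higher in suvh2, and 9387 RdDM windows (78.6%) were lower. For suvh9 against Col-0 gp4, 8.32% of windows were lower and 7.14% higher. The same rule put 96.8% of the RdDM windows of the double mutant and 98.04% of those of nrpe1 below Col-0 gp4. Between Col-0 libraries the same rule counted many windows: 8.18% were at least 2-fold lower in the untagged Col-0 library than in Col-0 gp4, 42.4% in gp2, 46.9% in gp3, 55.9% in gp5 and 81.0% in gp6. The filter on summed counts used Col-0 gp4 but not these libraries, which favours windows lower in them. It did not use the double mutant or nrpe1 either.

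The same windows, set against all 6 Col-0 libraries, showed a narrower separation. They were kept by their summed count in suvh2, suvh9 and Col-0 gp4, so the filter favours windows high in these libraries. The other Col-0 libraries and the double mutant had no part in it, and the size of this effect was not tested. Suvh2 lay below all 6 in 34.5% of windows, among them 4847 of 11938 RdDM windows (40.6%), and above all 6 in 5.96%. Suvh9 lay above all 6 in 35.9% of windows and in 38.5% of RdDM windows, and below all 6 in 3.49% of windows and 2.03% of RdDM windows. The double mutant was below all 6 in 85.4% of RdDM windows. Outside a segment of chromosome 3 described next, 7878 RdDM windows (71.3%) were at least 2-fold lower than Col-0 gp4 in suvh2 but within 2-fold of it in suvh9. In the same set, 558 windows (5.05%) were lower in both mutants, 256 (2.32%) were lower in suvh9 while within 2-fold in suvh2, and 12 were lower in suvh9 and higher in suvh2. A further 1770 windows (16.0%) were within 2-fold in both. These counts share the Col-0 gp4 library.

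The pattern among windows, apart from the total, was compared after each library was scaled to its own summed RdDM signal. Of 11055 RdDM windows outside the segment, 18.2% were then at least 2-fold lower and 15.3% higher than Col-0 gp4 in suvh2, and 6.86% lower and 4.31% higher in suvh9. The other Col-0 libraries had 2.43% lower and 1.99% higher (untagged), 2.96% and 2.11% (gp2), 23.3% and 10.5% (gp3), 6.70% and 2.41% (gp5) and 11.5% and 5.07% (gp6). Suvh9 thus lay inside their range in both directions, and suvh2 above all of them for higher windows and below gp3 for lower ones. The windows had been kept by their summed count in suvh2, suvh9 and Col-0 gp4, without the other Col-0 libraries. That filter favours windows high in suvh2 or suvh9, so the shares of higher windows are a description. On this scale suvh2 was below all 6 Col-0 libraries in 17.3% and above them in 36% of the 15921 windows, and suvh9 below in 11.1% and above in 25.2%.

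**Figure D2:**
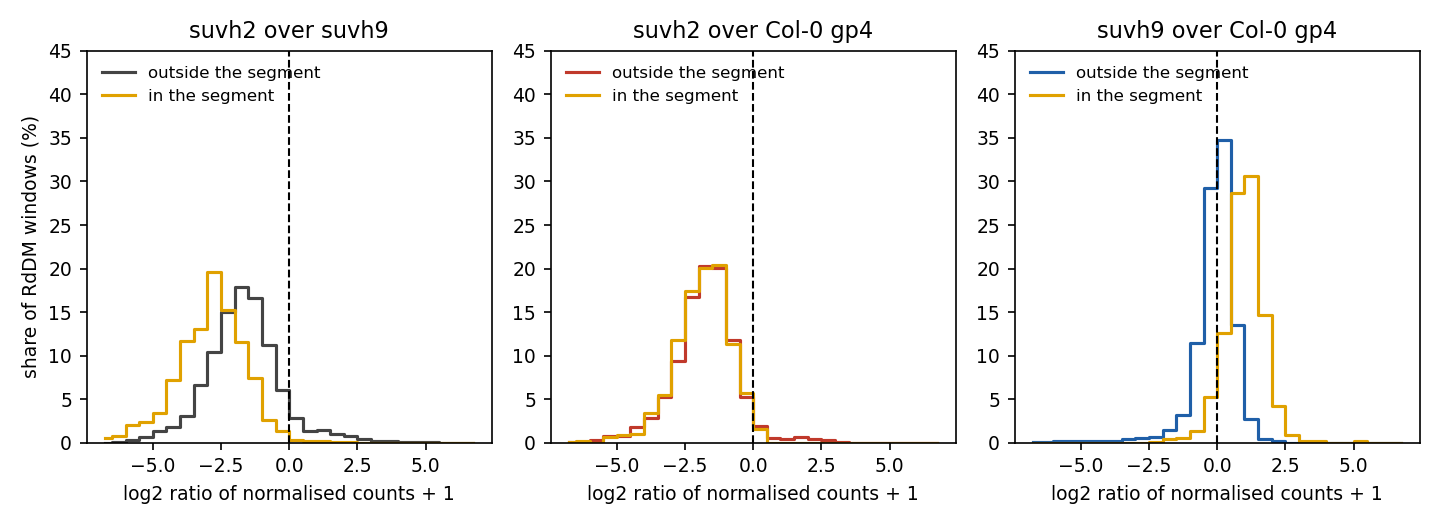
Share of RdDM windows (y axis, %) by the log2 ratio of normalised counts plus 1 (x axis) for suvh2 over suvh9 (left), suvh2 over Col-0 gp4 (middle) and suvh9 over Col-0 gp4 (right), among windows with at least 60 summed counts. Lines inside and outside the chromosome 3 segment overlap for suvh2 over Col-0 gp4, while for suvh9 over Col-0 gp4 the segment is shifted to higher ratios.

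The suvh9 library stood apart in 1 block of chromosome 3, at 3:15640001-19090000 (TAIR10, 3.45 Mb), where its counts in every class were far above the Col-0 gp4 level. The edges were set from the suvh9 and Col-0 gp4 counts of RdDM windows with fewer than 5 nrpe1 counts, in bins of 10 kb, so the size of the step in those windows is a description. In the block, RdDM signal was 33.7% of Col-0 gp4 in suvh2, 194.7% in suvh9 and 13.9% in the double mutant, with 31.5% to 104.2% in the other Col-0 libraries. Non-RdDM signal was 36.0% in suvh2, 189.3% in suvh9 and 17.9% in the double mutant. Windows not transcribed by Pol V, which served for scaling over the genome, stood at 104.5% in suvh2, 182.7% in suvh9 and 108.5% in the double mutant there, with 105.0% to 133.7% in the other Col-0 libraries. In the rest of chromosome 3 the same class stood at 100.3% in suvh2 and 100.6% in suvh9. So suvh9 was high in the block in windows of all 3 classes, including the 1 class in which no Pol V transcription is listed.

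In bins of 500 kb of RdDM windows with few nrpe1 counts, suvh9 had 163.9% to 228.6% of Col-0 gp4 in the 7 bins of the block (median 207.0%), against 62.3% to 121.6% in the 228 bins elsewhere (median 96.9%). For suvh2 the 7 bins had 23.4% to 33.2%, against 13.2% to 47.7% elsewhere. Protein-coding genes gave the same step: over 74 gene bodies in the block, counted in windows outside the Pol V classes, the median log2 ratio to Col-0 gp4 was −0.18 in suvh2 and 0.86 in suvh9. Over 378 genes in the rest of chromosome 3 it was −0.14 in suvh2 and −0.16 in suvh9, and over 1906 genes of the other chromosomes −0.13 in suvh2 and −0.19 in suvh9. Taken relative to the block's own windows outside the Pol V classes, RdDM signal there was 32.2% of Col-0 gp4 in suvh2 and 106.6% in suvh9, against 53.6% in suvh2 and 95.3% in suvh9 in the rest of chromosome 3, and 37.3% in suvh2 and 99.8% in suvh9 on chromosomes 1, 2, 4 and 5. No DNA of the suvh9 plants was measured here, so the number of copies of the block and its RNA level cannot be told apart. Without the block, suvh9 kept 96.6% of the Col-0 gp4 signal in RdDM windows and 77.3% in non-RdDM windows, and suvh2 39.9% and 47.0%.

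**Figure D3:**
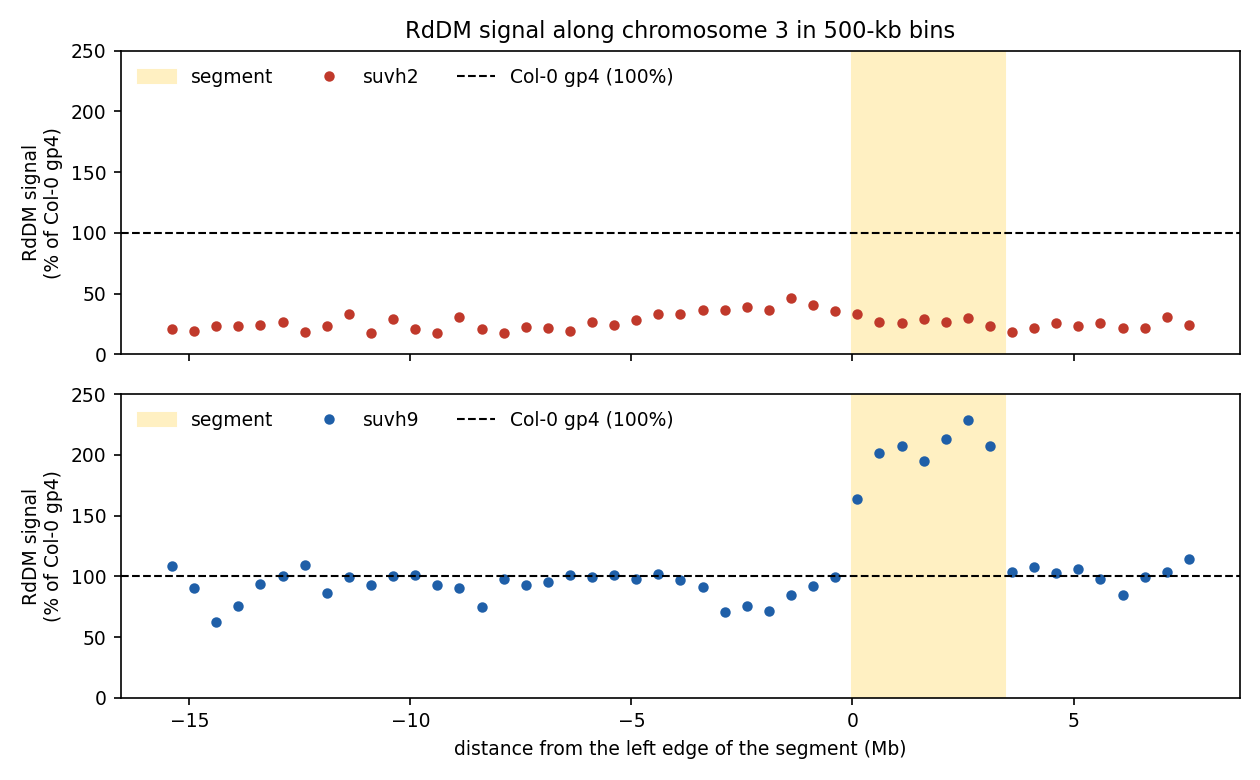
RdDM signal as a percentage of Col-0 gp4 (y axis) in 500-kb bins of chromosome 3 against the distance from the left edge of the segment (x axis, Mb) for suvh2 (top) and suvh9 (bottom), in windows with fewer than 5 summed nrpe1 counts. Inside the shaded segment suvh9 reaches 163.9% to 228.6%, while suvh2 shows no step.

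DNA methylation of the windows was taken from the authors' averages for Col-0 leaves, whose depth is unknown. CHH methylation is placed by RdDM and by CMT2. Over all RdDM windows, from under 2% CHH to 20% and over, suvh2 had 29.2%, 33.9%, 40.2%, 63.5% and 32.3% of Col-0 gp4, with its peak in the bin of 10 to 20%, and suvh9 had 87.9%, 97.4%, 100.03%, 105.7% and 106.2%. By CHG level over all windows, suvh2 had 30.8%, 45.4%, 59.1%, 35.0% and 31.9%, from under 10% to 70% and over, and suvh9 had 88.9%, 97.9%, 104.7%, 107.7% and 109.3%. By CG level over all windows, the lowest bin had 25.4% in suvh2 and 90.2% in suvh9, and the highest bin 49.1% in suvh2 and 106.9% in suvh9. Without the windows of at least 5 summed nrpe1 counts and without the block, a choice made after the data were seen, the peak was not present. Suvh2 then kept a nearly flat share: 27.7% of Col-0 gp4 in windows under 2% CHH, 30.9% at 2 to 5%, 31.0% at 5 to 10%, 29.3% at 10 to 20% and 27.7% at 20% and over. The share in suvh9 was 81.9%, 92.4%, 95.8%, 100.0% and 102.9% in the same bins, lowest where CHH methylation was lowest. In the double mutant it was 7.98%, 10.7%, 13.4%, 14.4% and 10.4%. The other Col-0 libraries spanned 29.3% to 91.3% in the lowest bin and 31.9% to 112.0% in the highest, so suvh2 was below all of them at both ends and suvh9 inside their range at both ends.

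CHG methylation, which is maintained by CMT3 together with histone H3 lysine 9 methylation, gave a like picture in this subset. From under 10% CHG to 70% and over, suvh2 had 29.2%, 32.1%, 29.4%, 27.8% and 27.2% of Col-0 gp4, and suvh9 had 83.9%, 92.5%, 98.6%, 104.0% and 105.8%. For CG methylation, which MET1 copies at replication, suvh2 had 24.8% in windows under 10% and 29.5% in windows at 80% and over, suvh9 83.6% and 102.1%, and the double mutant 5.61% and 14.6%. The ratio of the highest to the lowest bin, relative to the same ratio in Col-0 gp4, was 0.998 in suvh2 and 1.26 in suvh9 for CHH, with 1.01 to 1.23 in the other Col-0 libraries. For CHG it was 0.933 in suvh2 and 1.26 in suvh9, with 1.03 to 1.47 in Col-0. For CG it was 1.19 in suvh2, 1.22 in suvh9 and 2.60 in the double mutant, with 1.00 to 2.17 in Col-0. In this subset the CHH slope of suvh9 thus lay just above the range of the other Col-0 libraries. The CHH and CHG slopes of suvh2 lay below that range. Col-0 gp4 stands at 1 in each ratio by definition, close to the 0.998 of suvh2 for CHH. Over all RdDM windows the CHH ratio was 1.11 in suvh2 and 1.21 in suvh9, both inside the Col-0 range of 0.993 to 1.212. The CHG ratio over all windows was 1.0351 in suvh2, between Col-0 gp4 at 1 and the other Col-0 libraries at 1.0375 to 1.52. In suvh9 it was 1.23, inside the Col-0 range. For CG it was 1.93 in suvh2 and 1.19 in suvh9, both inside the Col-0 range of 1.08 to 2.41. The windows differ between bins in the class of element they hold, and no part of these slopes was tested for it.

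**Figure D4:**
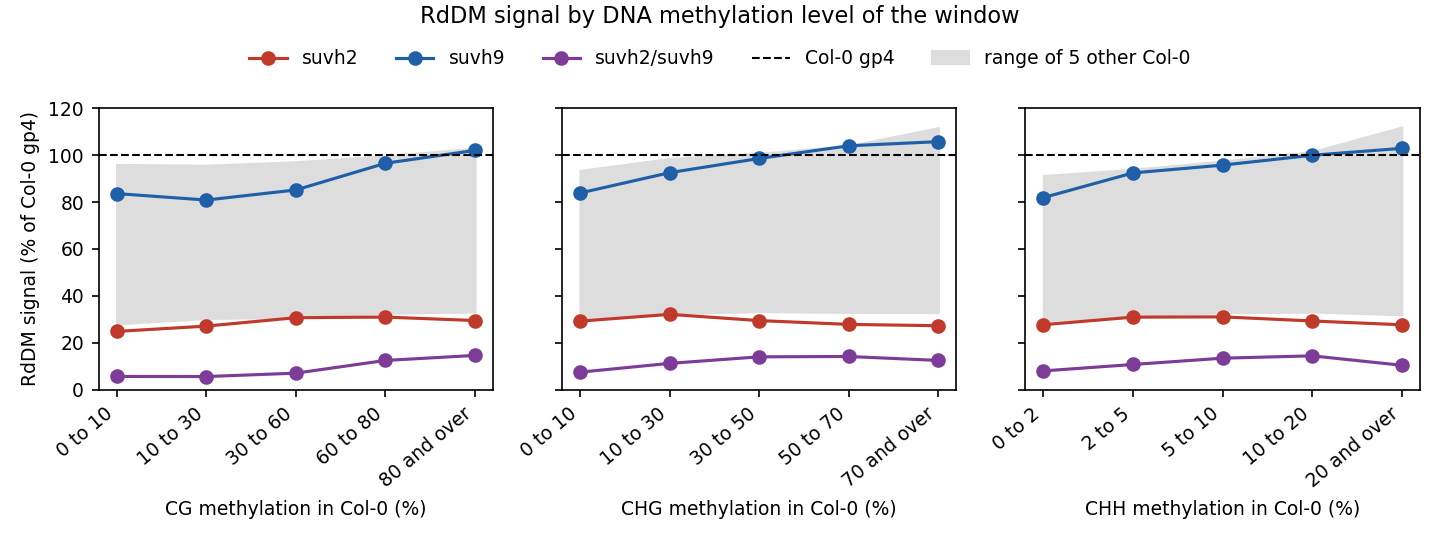
RdDM signal as a percentage of Col-0 gp4 (y axis) in windows grouped by their CG (left), CHG (middle) and CHH (right) methylation level in Col-0 (x axis, %), for suvh2, suvh9 and the double mutant, in windows with fewer than 5 summed nrpe1 counts outside the chromosome 3 segment; the grey band is the range of the 5 other Col-0 libraries. Suvh2 stays between 24.8% and 32.1%, while suvh9 runs from 80.9% to 105.8%.

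Position along the chromosome set the mutants apart by a wider margin than the highest against the lowest methylation bin. Of 1193 bins of 100 kb, 229 had a mean CG level of at least 40% in Col-0; such bins surround the centromeres in Arabidopsis, although here they were chosen by methylation alone. Over all RdDM windows suvh2 kept 66.4% of the Col-0 gp4 signal in these bins and 25.7% in the others, and suvh9 94.999% and 104.3%. In windows with few nrpe1 counts outside the block, suvh2 kept 36.9% in CG-methylated bins and 24.0% elsewhere, suvh9 90.6% and 98.3%, and the double mutant 15.7% and 8.74%. The ratio between the bins, relative to Col-0 gp4, was 1.54 in suvh2, 0.921 in suvh9 and 1.79 in the double mutant, against 0.963 to 1.36 in the other Col-0 libraries. Suvh2 and the double mutant were above the Col-0 range and suvh9 was below it. The log2 ratio of suvh2 to suvh9 was higher by 0.74 in CG-methylated bins than in the others, whereas its difference between the highest and the lowest methylation bin was −0.33 for CHH, −0.43 for CHG and −0.04 for CG. The windows with many nrpe1 counts moved with this result: they hold 38.7% of the RdDM counts of suvh2, and leaving them out lowered its share in CG-methylated bins far more than in the others.

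The chromosomes themselves differed little in those windows, with 25.7% to 30.7% of Col-0 gp4 in suvh2 and 93.8% to 98.03% in suvh9. Long stretches of RdDM windows kept slightly more signal than isolated windows in this subset: 33.2% in runs of over 20 windows and 26.0% in runs of 1 to 2 windows in suvh2, and 99.7% and 84.3% in suvh9. In the double mutant the same runs had 17.2% and 7.52%. Relative to Col-0 gp4, the ratio of long to short runs was 1.28 in suvh2, 1.18 in suvh9 and 2.28 in the double mutant, with 0.955 to 1.68 in the other Col-0 libraries, so the double mutant was outside the Col-0 range there. Over all RdDM windows the ratio was 2.27 in suvh2, 1.15 in suvh9 and 2.91 in the double mutant, with 0.958 to 1.86 in the other Col-0 libraries, and suvh2 was outside the range as well.

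Over all RdDM windows, suvh2 had 40.9% of Col-0 gp4 in windows with no gene, 31.4% in protein-coding genes, 35.0% in pseudogenes and 52.6% in other genes, and suvh9 had 102.1%, 96.9%, 99.9% and 96.2%. The groups of suvh2 were closer to each other when windows with many nrpe1 counts were left out. In RdDM windows with few nrpe1 counts outside the block, suvh2 had 28.2% of Col-0 gp4 in windows with no gene, 28.4% in protein-coding genes and 28.8% in pseudogenes, the type under which the gene table lists transposon genes. Suvh9 had 96.4%, 92.2% and 96.6% in the same 3 groups. In non-RdDM windows of protein-coding genes in the same subset, suvh2 had 47.9%, suvh9 56.9%, the double mutant 19.4% and nrpe1 9.68%, with 28.2% to 79.6% in the other Col-0 libraries. In non-RdDM windows with no gene, suvh2 had 28.4%, suvh9 86.7% and nrpe1 1.60%, with 30.2% to 104.4% in Col-0. The ratio of protein-coding to gene-free windows, relative to Col-0 gp4, was 1.69 in suvh2, 0.657 in suvh9 and 1.65 in the double mutant, with 0.762 to 1.298 in the other Col-0 libraries. Over all non-RdDM windows it was 1.23 in suvh2 and 0.666 in suvh9, with 0.660 to 1.15 in the other Col-0 libraries, so suvh9 was inside the range. In the subset the difference between the single mutants was small in genic non-RdDM windows, at a log2 ratio of suvh2 to suvh9 of −0.25, and large in gene-free ones, at −1.61.

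**Figure D5:**
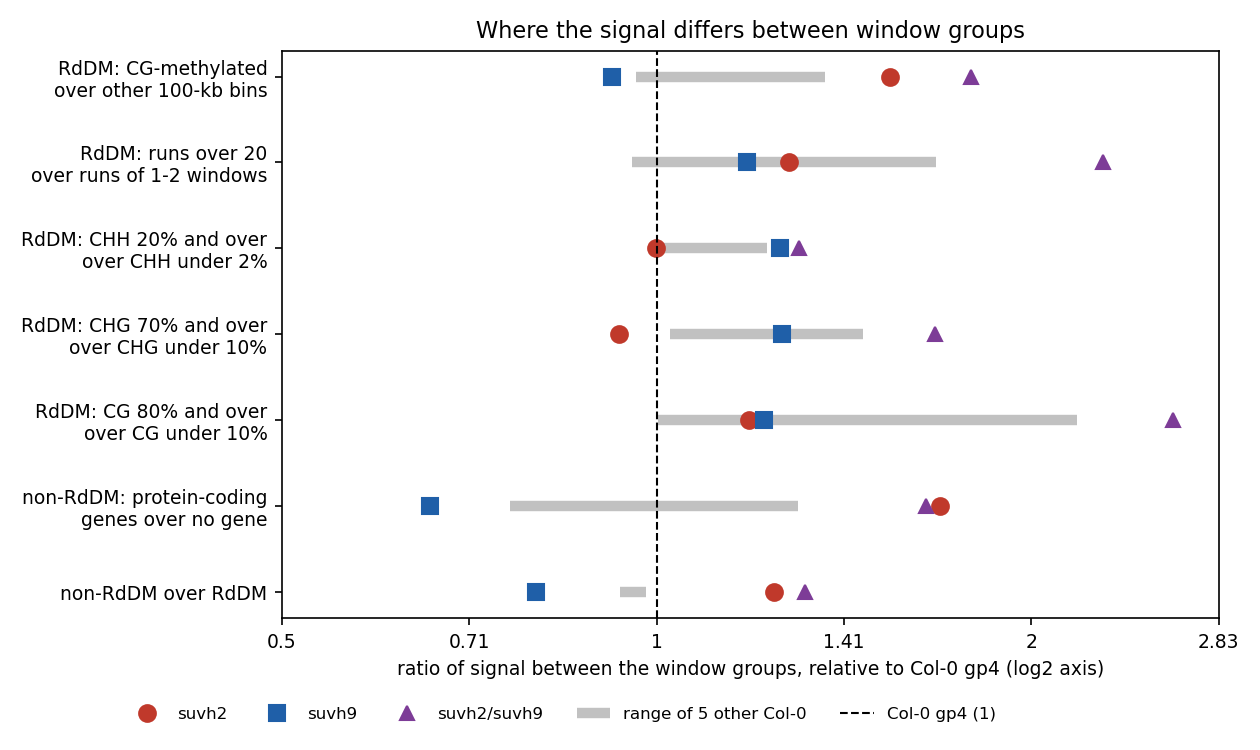
Ratio of signal between 2 groups of windows relative to the same ratio in Col-0 gp4 (x axis, log2 scale) for suvh2, suvh9 and the double mutant; grey bars are the range of the 5 other Col-0 libraries, and all values are from windows with fewer than 5 summed nrpe1 counts outside the chromosome 3 segment. In this subset suvh2 and suvh9 lie on opposite sides of the Col-0 range for CG-methylated bins (1.54 and 0.921), for genic over gene-free non-RdDM windows (1.69 and 0.657) and for non-RdDM over RdDM windows (1.24 and 0.7996). Over all windows the same ratios are 2.59 and 0.911, 1.23 and 0.666, and 1.18 and 0.805, and for genic over gene-free windows suvh9 is then inside the Col-0 range of 0.660 to 1.15.

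The mutated genes themselves are also covered by windows. Counts of genes and windows from here on are as deposited; the factors that make them normalised counts are 0.499 for suvh2, 0.871 for suvh9, 0.515 for the double mutant and 0.787 for nrpe1 gp4, with Col-0 gp4 at 1. Over the body of SUVH2 there were 79 counts in suvh2, 3 in suvh9 and 47 in the double mutant, against 86 in Col-0 gp4 and 1 in nrpe1 gp4. The 3 RdDM windows of SUVH2 held 26 counts in suvh2, 0 in suvh9 and 17 in the double mutant, against 64 in Col-0 gp4, 10 to 109 in the 6 Col-0 libraries and 0 in nrpe1 gp4. Hence the suvh9 library lacked counts over SUVH2 at which every Col-0 library had some. In the SUVH2 windows not transcribed by Pol V there were 23 counts in suvh2, 0 in suvh9 and 17 in the double mutant, while the 21 other libraries had 0 to 13. Over SUVH9 the windows of the same class held 6 counts in suvh2, 26 in suvh9 and 10 in the double mutant, against 0 to 6 in the other libraries. Each mutant library, and the double mutant with it, thus had more counts over its own gene in this class than any library of another genotype, in small numbers. The SUVH9 body as a whole had 44 counts in suvh2, 67 in suvh9 and 33 in the double mutant, against 57 in Col-0 gp4 and 6 in nrpe1 gp4. Since no source used here gives the position of either lesion, neither label can be checked by these counts.

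Classical RdDM targets were measured over their bodies and their flanks, the windows within 1 kb of either end of the gene. QQS, a gene next to transposon sequence, had 134 flank counts in suvh2, 375 in suvh9 and 34 in the double mutant, against 216 in Col-0 gp4 and 0 in nrpe1 gp4. After normalisation these are 66.9 in suvh2 and 327 in suvh9, a ratio of 0.20 (95% counting interval 0.16 to 0.27), against 69.6 to 180.2 in the other Col-0 libraries. The suvh2 value was under and the suvh9 value above every Col-0 library. The QQS body, with 77 counts in suvh2 and 46 in suvh9, had a ratio of 0.96 (0.58 to 1.62), so the mutants did not separate there at this depth. ALN, which encodes allantoinase and whose promoter is a known RdDM target, had 45 flank counts in suvh2, 109 in suvh9 and 13 in the double mutant, against 72 in Col-0 gp4 and 0 in nrpe1 gp4.

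SDC, an F-box gene silenced through tandem repeats in its promoter, had 46 flank counts in suvh2, 95 in suvh9 and 30 in the double mutant, against 65 in Col-0 gp4 and 4 in nrpe1 gp4. Normalised, that is 23.0 in suvh2 and 82.8 in suvh9, outside the 34.1 to 71.3 of the other Col-0 libraries on both sides. FWA, a homeodomain gene silenced by methylated repeats, had 55 body counts in suvh2, 82 in suvh9 and 12 in the double mutant, against 44 in Col-0 gp4 and 3 in nrpe1 gp4. Normalised, that is 27.5 in suvh2 and 71.4 in suvh9, both inside the 20.6 to 88.0 of the other Col-0 libraries. DML1 (ROS1), a DNA demethylase whose own promoter is methylated through RdDM, had 85 flank counts in suvh2, 109 in suvh9 and 6 in the double mutant, against 85 in Col-0 gp4 and 0 in nrpe1 gp4. Normalised, it stood at 42.4 in suvh2 and 94.95 in suvh9. Its ratio of suvh2 to suvh9 was 0.45 (0.30 to 0.66). Of the 6 targets measured at their flanks, all 6 were at least 2-fold lower in suvh2 than in suvh9. Against Col-0 gp4, 5 were at least 2-fold lower in suvh2 and 0 in suvh9. Over the flanks of all 23004 measured genes, 52.2% were lower and 7.04% higher in suvh2 than in suvh9, 61.3% were lower and 4.22% higher in suvh2 than in Col-0 gp4, and 16.3% were lower and 7.26% higher in suvh9 than in Col-0 gp4. Of 14667 measured genes with an RdDM window in their flanks, 10360 were lower in suvh2 than in suvh9 and 11538 lower in suvh2 than in Col-0 gp4, so nothing particular to the targets is read from their count. Over the bodies of all 17825 measured genes, 34.2% were lower and 11.9% higher in suvh2 than in suvh9. Against Col-0 gp4, 44.6% of them were lower and 7.15% higher in suvh2, and 22.5% lower and 9.83% higher in suvh9.

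Genes of the RdDM pathway lie next to Pol V transcripts as well. DCL3, which cuts the precursors of small interfering RNAs, had 73 flank counts in suvh2, 340 in suvh9 and 13 in the double mutant, against 97 in Col-0 gp4 and 0 in nrpe1 gp4. DMS3, part of the complex that recruits Pol V, had 93 in suvh2, 450 in suvh9 and 36 in the double mutant, against 180 in Col-0 gp4 and 2 in nrpe1 gp4. Both genes lie in the block of chromosome 3 in which suvh9 was high in all classes. Outside it, NRPD1B (NRPE1, the gene of the antibody's target) had 34 flank counts in suvh2, 99 in suvh9 and 17 in the double mutant, against 102 in Col-0 gp4 and 1 in nrpe1 gp4. HEN1, which methylates small RNAs, had 39 in suvh2, 70 in suvh9 and 15 in the double mutant, against 62 in Col-0 gp4 and 0 in nrpe1 gp4.

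Elsewhere in the list the suvh9 library did not follow Col-0 gp4. NRPD2A, the subunit shared by Pol IV and Pol V, had 0 flank counts in suvh2, 3 in suvh9 and 0 in the double mutant, against 136 in Col-0 gp4, and DMS11, an ATPase of the pathway, had 4 in suvh2, 4 in suvh9 and 0 in the double mutant, against 102 in Col-0 gp4. The other Col-0 libraries had 0 to 136 normalised counts at NRPD2A and 3.07 to 125.5 at DMS11, so neither place is steady in wild type. Of 13 pathway genes measured at their flanks, 8 were at least 2-fold lower than Col-0 gp4 in suvh2 and 0 higher, and in suvh9 4 were lower and 4 higher. The share of 8 of 13 is near the 61.3% of all gene flanks. In suvh9, 16.3% of all gene flanks were lower and 7.26% higher. Over the bodies of 17 measured genes, 2 were lower and 2 higher in suvh2, and 6 lower and 2 higher in suvh9. The shares over all gene bodies were 44.6% lower and 7.15% higher in suvh2, and 22.5% lower and 9.83% higher in suvh9.

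Genes of histone H3 lysine 9 methylation and of methylation maintenance also had counts at their flanks. SUVH1, a relative of SUVH2, had 61 flank counts in suvh2, 206 in suvh9 and 9 in the double mutant, against 170 in Col-0 gp4 and 0 in nrpe1 gp4. SUVH5, a histone methyltransferase, had 60 in suvh2, 96 in suvh9 and 1 in the double mutant, against 118 in Col-0 gp4 and 0 in nrpe1 gp4. MET1 had 15 in suvh2, 38 in suvh9 and 9 in the double mutant, against 29 in Col-0 gp4 and 1 in nrpe1 gp4. Of 9 genes measured at their flanks, 6 were at least 2-fold lower than Col-0 gp4 in suvh2 and 0 in suvh9, and 1 was higher in suvh9. Of all gene flanks, 61.3% were lower in suvh2, and 16.3% were lower and 7.26% higher in suvh9. The summed flank signal of the 9 genes was 32.1% of Col-0 gp4 in suvh2 and 107.1% in suvh9.

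Messenger RNA in the libraries was followed with genes that have no known tie to Pol V. Of 21 photosynthesis gene bodies, 2 were at least 2-fold lower and 2 higher than Col-0 gp4 in suvh2, and 1 lower and 5 higher in suvh9. Over all measured gene bodies, 44.6% were lower and 7.15% higher in suvh2, and 22.5% lower and 9.83% higher in suvh9. Their sum was 115.1% of Col-0 gp4 in suvh2 and 152.8% in suvh9. LHCA4, a light-harvesting protein gene in the block of chromosome 3, had 1057 counts in suvh2, 1713 in suvh9 and 389 in the double mutant, against 355 in Col-0 gp4 and 456 in nrpe1 gp4. Near-identical copies in the family, such as CAB2 and CAB3, are uncertain. Of 11 housekeeping gene bodies, 1 was lower in each mutant and 0 were higher, with sums of 82.4% in suvh2 and 90.1% in suvh9. The part of messenger RNA in the class values was not tested.

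A window-level test was fitted over all 24 IPARE libraries with edgeR's quasi-likelihood test. The lone suvh2 and suvh9 libraries are assumed to vary like the replicated genotypes, which are Col-0, nrpe1, ago4, spt5l, dms5-1 and drd3-3. Of 105462 windows tested, 425 (0.403%) were lower and 7 (0.00664%) higher in suvh2 than in suvh9 at a Benjamini-Hochberg adjusted p of 0.05, and at an unadjusted p of 0.05 23598 were lower and 876 higher. Of the 425, 348 were RdDM windows, 77 non-RdDM windows and 0 windows not transcribed by Pol V, and 110 lay in the block of chromosome 3. Of the 105462 windows tested, 65786 were RdDM windows, 20315 non-RdDM windows and 19361 windows not transcribed by Pol V, and 5009 lay in the block. The smallest adjusted p of this comparison lay just under the limit of 0.05, so all its calls sit close to the cut. The median log2 ratio of suvh2 to suvh9 was −2.08 over tested RdDM windows, −1.32 over non-RdDM windows and 0 over the third class. The count hung on the Col-0 libraries in the fit: the 425 became 2015 without the untagged Col-0 library, 3289 without gp3 and 1824 without gp6, and 0 without gp2, gp4 or gp5. Under TMM scaling the count was 0 in both directions (72493 windows), where the median log2 ratio over all windows was 0.

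Against the 6 Col-0 libraries, edgeR called 1 window (0.000948%) lower and 17 (0.0161%) higher in suvh2, with 19383 lower and 2398 higher at an unadjusted p of 0.05. It called 8 (0.00759%) lower and 126 (0.119%) higher in suvh9, with 2040 lower and 5841 higher unadjusted. Of the 126, 56 lay in the block of chromosome 3 and 70 outside it. The count filter was set by genotype and let a window in through a single library. Windows called higher may thus have entered the test only through the suvh2 or suvh9 library in which they are high. Of the 105462 windows tested, 65786 were RdDM windows, 19361 were in the class not transcribed by Pol V and 5009 lay in the block. The split of so few called windows by class is a description. Of the 17 windows higher in suvh2, 13 were in the class not transcribed by Pol V, and all 8 windows lower in suvh9 were RdDM windows. Leaving out the Col-0 library gp3 gave 1634 lower and 286 higher windows for suvh2 and 53 lower and 198 higher for suvh9. Without gp4 there were 7 lower and 51 higher for suvh2, and without the untagged library, gp2, gp5 or gp6 1 lower and 6 to 10 higher. For suvh9 the windows called higher were 132 without the untagged library, 47 without gp2, 187 without gp4, 96 without gp5 and 63 without gp6; those called lower were 0 without gp2 and 5 without gp6.

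Called windows included places with reads in only 1 of the single mutants. Those named here were picked after their values were seen. The 1 window lower in suvh2 than in Col-0, at 4:15373351-15373550 near DBR1 (an RNA lariat debranching enzyme), had 0 counts in suvh2, 85 in suvh9 and 1 in the double mutant, against 83 in Col-0 gp4 and 36 to 242 in the 5 other Col-0 libraries (edgeR adjusted p 0.0271). Suvh2 and the double mutant thus lacked reads that suvh9 and all 6 Col-0 libraries had. The reverse was seen at 2:1927351-1927550, an RdDM window in the long non-coding RNA gene AT2G04885. It held 114 counts in suvh2, 0 in suvh9 and 2 in the double mutant, against 93 in Col-0 gp4 and 19 to 191 in the others (edgeR adjusted p 0.0257 against Col-0). Windows near AT4G03100, with 112 counts in suvh2, 0 in suvh9, 5 in the double mutant and 84 in Col-0 gp4, and near AT4G10600, with 78 counts in suvh2, 0 in suvh9, 2 in the double mutant and 82 in Col-0 gp4, gave the same pattern. A window over RPS28, a ribosomal protein gene, at 5:25668301-25668500 had 264 counts in suvh2, 0 in suvh9 and 0 in the double mutant, against 163 in Col-0 gp4 and 8.34 to 143.1 normalised counts in the other Col-0 libraries. Libraries of genotypes other than Col-0 and the suvh mutants reached at most 3 counts at RPS28, so the lack of reads there was not particular to suvh9. At AT2G04885, AT4G03100 and AT4G10600 they reached 212, 137 and 133 counts. The windows at AT2G04885, AT4G03100, AT4G10600 and RPS28 had reads in suvh2 and none in suvh9, against the direction of the class as a whole.

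Among windows higher in suvh2 than in Col-0, 1:28144201-28144400 over ORA47, a stress-inducible transcription factor of the AP2/ERF family, had 114 counts in suvh2, 14 in suvh9 and 53 in the double mutant, against 5 in Col-0 gp4 and 0 to 6 in the 5 other Col-0 libraries (edgeR adjusted p 0.0011). Libraries of other genotypes reached 69 counts there. WRKY33, a defence transcription factor, had 56 in suvh2, 7 in suvh9 and 20 in the double mutant, against 3 in Col-0 gp4, and NIA2, a nitrate reductase, 34 in suvh2, 4 in suvh9 and 10 in the double mutant, against 1 in Col-0 gp4. All 3 windows are listed as not transcribed by Pol V. An RdDM window beside AT5G46295, at 5:18780151-18780350, had 51 counts in suvh2, 1 in suvh9 and 1 in the double mutant, against 0 in Col-0 gp4. Libraries of other genotypes reached at most 4 counts there. It may have passed the count filter through the suvh2 library alone, so its call is a description. In suvh9, the window at 3:7141201-7141400 over GRP5, a glycine-rich protein gene, had 71 counts, against 0 in suvh2, 13 in the double mutant and 0 in Col-0 gp4. Libraries of other genotypes reached at most 1 count there, so the call of the GRP5 window is a description too. A window near AT3G01630 had 36 counts in suvh9 and 0 in suvh2, the double mutant, every Col-0 library and the libraries of other genotypes. It passed the count filter through the suvh9 library alone, so its call is a description. The GRP5 and AT3G01630 windows lie outside the block of chromosome 3.

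The windows with the lowest ratio of suvh2 to suvh9 were chosen by that ratio and are a description. Of these 8, 6 lie in the block of chromosome 3. The window at 3:18431401-18431600, nearest to MYB84, had 0 counts in suvh2, 202 in suvh9 and 0 in the double mutant, against 64 in Col-0 gp4 and 1 in nrpe1 gp4. Outside the block, the window at 5:394651-394850, nearest to RPL, had 0 in suvh2, 106 in suvh9 and 0 in the double mutant, against 65 in Col-0 gp4, and the window at 1:21524851-21525050 near AT1G58130 had 0 in suvh2, 99 in suvh9 and 0 in the double mutant, against 42 in Col-0 gp4. Windows without reads in either single mutant exist as well: at 5:5808751-5808950 near AUG7 there were 0 counts in suvh2, 0 in suvh9 and 0 in the double mutant, against 97 in Col-0 gp4 and 0 to 68.5 normalised counts in the other Col-0 libraries. At 5:503101-503300 the order was reversed, with 142 counts in suvh2, 135 in suvh9 and 16 in the double mutant, against 1 in Col-0 gp4 and 0 to 63.7 normalised counts in the other Col-0 libraries. Normalised, these are 70.9 in suvh2 and 117.6 in suvh9, above all 6 Col-0 libraries, whereas near AUG7 at least 1 other Col-0 library also had no reads.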

How the data were processed

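The authors deposited read counts in windows of TAIR10, and UMI-tools, cutadapt, Bowtie2 and Bismark are named in the submitters' processing notes without versions. RNA ends were pulled down with an antibody against NRPE1 and sequenced by template switching, per the labels' protocols. Strand, mapping filters and the handling of reads with several places are stated in no source used here. The authors' deposited methylation levels are fractions, averaged per genotype (Col-0 and nrpe1 leaves), without coverage, and are printed here as percentages. The class lists came from the authors as well, named for a hidden Markov model.

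Windows of 200 bp share 50 bp with their neighbours, so a read entered 1.74 windows on average. Counts were scaled to the windows not transcribed by Pol V outside rDNA. Samples were grouped by genotype label; no label tells whether replicates came from separate plantings, so p-values measure the spread between libraries. Sums and ratios were made with Python 3.11.15 and pandas 2.3.3. Windows were tested with edgeR 4.0.16 (glmQLFTest, filterByExpr with a count minimum of 10, 24 libraries, 13 residual degrees of freedom, Benjamini-Hochberg threshold 0.05), with DESeq2 1.42.0 as an alternative. On simulated counts (93630 windows, 50 changed per fold size) for suvh2 against Col-0, changes of −2, −1 and 1 on the log2 scale were called in 0%. Changes of 2 were called in 4%, so most changes of these sizes were missed there. Only 200 windows were changed, and the rest of suvh2 was set to the Col-0 level, unlike in the data. The shares called thus need not hold for the data. Intervals of single counts and shares are at 95% and cover counting error only. Gene names came from a RefSeq table of TAIR10.1 without strand; 16 transposon names, CLSY2, CLSY3, CLSY4 and EF1A-A1 were not matched. Genes needed 20 counts summed over suvh2, suvh9 and Col-0 gp4.

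The members, gene lists and window rules were chosen with earlier results of these data known. Windows were named by the lowest and highest ratio of suvh2 to suvh9 (8 each, at least 5 kb apart), and by loss or retention in both mutants (5 each); windows from edgeR were picked after their values were seen. Alternatives covered scaling, filters, the Col-0 library used, left-out libraries and a block for the set.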

Additional observations from a re-analysis of the deposited data

Results flagged for a closer look

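The share of counts in rDNA windows in the untagged nrpe1 library, 49.6%, was far from the other 4 nrpe1 libraries, which had 61.3% to 63.2%. Chance alone places about 1 in 20 groups of this size past the limit used. The library enters the results on suvh2 and suvh9 through the summed nrpe1 count of a window, the range of the nrpe1 libraries and the window-level test.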

How the results depend on the processing

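The signal kept per class held its direction under most settings and depended on the scaling and on the Col-0 library used. With library totals, the log2 ratio of suvh2 to suvh9 was −0.68 for RdDM and −0.13 for non-RdDM windows, and non-RdDM signal in suvh2 was 75.7% of Col-0 gp4. With totals without rDNA, suvh2 had 72.2% of RdDM and 84.9% of non-RdDM signal, with ratios of −0.52 for RdDM and, reversed, 0.022 for non-RdDM windows. Against the mean of Col-0 gp2, gp5 and gp6, suvh2 had 87.0% and suvh9 221.9% of RdDM signal, and suvh2 100.9% (reversed) and suvh9 176.1% of non-RdDM signal. The ratio in the lowest CHH bin was −0.92 with library totals, against −1.59 as reported, and −1.04 in the highest, against −1.72. In CG-methylated bins it was −0.52, but 0.15 with library totals and −1.32 in windows with few nrpe1 counts, and in the other bins −1.35 with library totals, against −2.02. Windows at least 2-fold lower and higher in suvh2 than suvh9 numbered 23292 and 1759 with a summed count of at least 30, 3070 and 495 with 120, 5664 and 294 at 4-fold, and 5088 and 469 in every other window. With library totals 7418 were lower and 1876 higher.

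In the edgeR test, window counts moved with nearly every setting. Given as lower and higher in suvh2 than Col-0, in suvh9 than Col-0 and in suvh2 than suvh9, they were 306 and 1333, 2 and 15, and 0 and 0 with TMM. With library totals they were 33 and 70, 3 and 24, and 0 and 0, and with a filter on a total of 15 counts alone 178 and 148, 18 and 203, and 203 lower. DESeq2 called 2426 and 11, 26 and 6, and 1449 and 22. Without the chromosome 3 segment 70 were higher in suvh9 than Col-0. Leaving out 1 Col-0 library each gave 1 to 1634 and 6 to 286 for suvh2 against Col-0, 0 to 53 and 47 to 198 for suvh9 against Col-0, and 0 to 3289 and 0 to 62 for suvh2 against suvh9. The cause of these moves was not tested. With the set as a replicate block the counts were 15646 and 498, 417 and 72, and 18973 and 570; deviations of Col-0 and nrpe1 libraries of a set correlated at 0.036 to 0.277, and 4 of 5 nrpe1 libraries correlated best with their own set, a hint of shared sets that did not reach 0.1 in all 5, so the sets were not taken as pairs. Settings on windows with few nrpe1 counts, on the segment and on Col-0 libraries left out for suvh2 against suvh9 were chosen after seeing the data. Over all results and settings, 69 values stayed the same within the limits used, 79 moved and 2 reversed. These limits are wide: RdDM signal in suvh2 counts as the same at 39.7% of Col-0 gp4 as reported and 64.4% with library totals.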
